A study of Mus musculus with 8 samples.

Results

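Hepatokines are proteins that the liver secretes and that act on other organs. The genes described here are 10 of the 25010 genes in the deposited expression table, taken by their symbols: Enho, Fgf21, Igfbp1, Igfbp2, Inhbe, Inhba, Gdf15, Lect2, Fst and Fetub. RNA-Seq was performed on the left hepatic lobe of 2 WT and 2 LXRDKO mice on a C57BL/6 background, all 8 wk old, fed standard chow and fasted for 4 to 6 h before they were killed. LXRDKO mice lack both liver X receptors, LXRα (encoded by Nr1h3) and LXRβ (Nr1h2), in the whole body, so the deletion is not limited to hepatocytes. Each library was taken as 1 mouse. Sex and litter are not given in the sources used here. P values rest only on the spread between these libraries, in part pooled across genes. The question asked of these genes was whether their transcripts differed in liver without LXRs.

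Liver X receptors are nuclear receptors that bind oxysterols and switch on genes of cholesterol disposal and fatty acid synthesis. Among the hormones of the liver, FGF21 rises in fasting and amino acid shortage, GDF15 rises in cells under stress and acts on the hindbrain to reduce food intake, and adropin, the product of Enho, acts on glucose and lipid handling. Activin subunits (Inhba, Inhbe) and the activin antagonist follistatin (Fst) belong to the TGF-β family and its binding proteins. Insulin-like growth factor binding proteins 1 and 2 (Igfbp1, Igfbp2) carry IGFs in plasma, and hepatic Igfbp1 is repressed by insulin. LECT2 is a chemotactic and metabolic plasma protein, and fetuin-B (Fetub) is a cystatin-family inhibitor of a protease of the egg coat.

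Values are normalized counts, that is, reads counted on a gene divided by a size factor of the library. Reads on genes numbered from 55772659 to 72842744 per library. Fold changes and P values came from limma on log2(normalized count + 1) over the 15578 genes whose mean reached 10 normalized counts, a scale that understates the change of low genes. An adjusted P value under 0.05 (Benjamini-Hochberg, over all genes tested) was called a change. Both deleted receptors fell in LXRDKO, the difference on the log2 scale being −1.65 for Nr1h3 and −1.66 for Nr1h2 (adjusted P = 0.0147 for each, limma). Markers of hepatocytes, 10 in all, were present in every library and summed to between 6568381 and 7869938 normalized counts per liver, with overlap between genotypes. Alb made up most of that sum, and DESeq2 called 2 of the 10 markers up-regulated, Tat (log2 fold change 0.66, adjusted P = 0.00675) and Hnf4a (0.61, adjusted P = 0.0115).

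All 10 hepatokine genes passed the filter on low values. Limma called none of them, as against 0.321% of all genes tested, while 4 of the 10 (Enho, Inhba, Gdf15 and Fetub) passed 0.05 before adjustment, as did 13.3% of all genes tested. DESeq2 on reads recovered from the same table called Enho alone, where it called 3.59% of the genes it tested, and the quasi-likelihood test of edgeR called none. For Enho, Gdf15, Lect2 and Fetub, 4 of 10 genes, the lower LXRDKO liver exceeded the higher WT liver, as for 21.7% of all genes tested. For Inhbe and Inhba, 2 of 10, the higher LXRDKO liver was under the lower WT liver, as for 23% of all genes. The other 4 genes, Fgf21, Igfbp1, Igfbp2 and Fst, overlapped between genotypes. The median log2 fold change of the 10 genes was 0.10, and that of all genes tested was −0.0046.

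**Figure D1:**
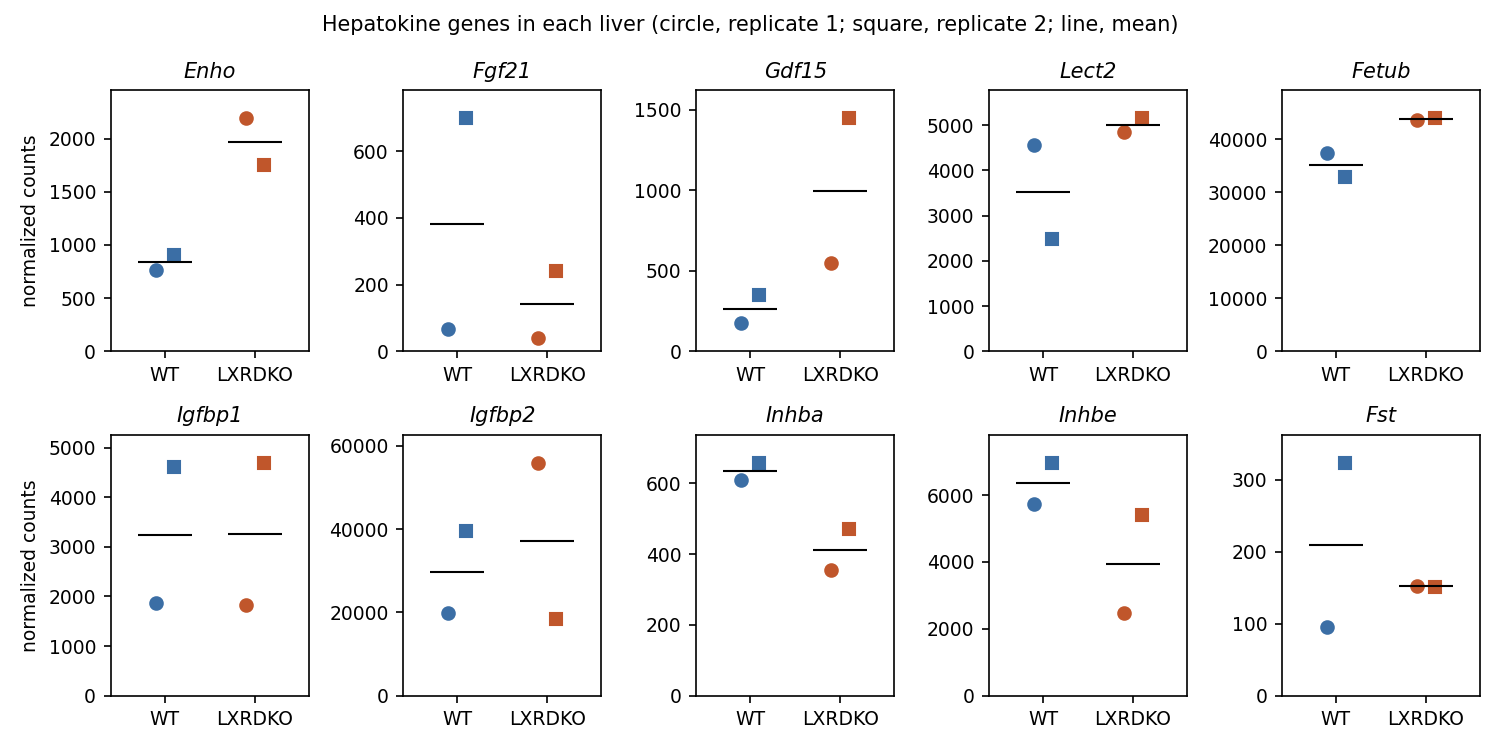
Normalized counts of the 10 hepatokine genes (y axis, linear, from 0) in the 2 WT and 2 LXRDKO livers (x axis), with a circle for replicate 1, a square for replicate 2 and a line at the mean. Enho sits at 768 and 905 in WT and at 2189 and 1753 in LXRDKO, whereas the 2 livers of a genotype are far apart for Fgf21, Igfbp1 and Igfbp2.

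The start regions of these genes were searched for short sequences, and some are shown. Fgf21, Igfbp1, Inhbe, Inhba and Gdf15 were each higher in replicate 2 than in replicate 1 in both genotypes. The part of these sequences in that order was not tested. RefSeq windows on GRCm38.p6, from 250 bases before to 50 bases after a gene start, were at hand for 8 of the 10 genes, in 11 windows, and not for Enho and Fst. The windows of Fgf21 and Inhbe both held TTGCATCA, the composite sequence bound by C/EBP and ATF factors, which 0.895% of all 32851 windows held on either strand. It began at −139 from the start of Fgf21 and at −181 from the RefSeq start of Inhbe. The Igfbp1 window held CAAAACAA, the insulin response element bound by FoxO factors, at −108, as 2.51% of all windows did. The stretches of 30 bases around these letters, read 5′ to 3′ on the strand of the gene with the matched letters in capitals, lie at chr7:45615611-45615640 (minus strand), chr10:127352011-127352040 (minus strand) and chr11:7197668-7197697 (plus strand).
Fgf21: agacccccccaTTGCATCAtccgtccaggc
Inhbe: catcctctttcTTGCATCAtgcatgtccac
Igfbp1: gagctcacaagCAAAACAAacttattttga
The Inhbe stretch lies inside an exon of the longer Inhbe gene model of GENCODE M21, which starts further upstream than the RefSeq model. Neither TTGCATCA nor CAAAACAA was in a window of Inhba or Gdf15.

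The 250 bases before the starts of Fgf21 (chr7:45615491-45615740, minus strand) and Gdf15 (chr8:70632457-70632706, minus strand) are given whole, since these 2 genes had the widest spread between livers and the largest difference between genotypes. Capitals mark TTGCATCA in Fgf21 and, in Gdf15, AGGTCA at −55, the hexamer that nuclear receptors bind. That hexamer, on either strand, was in 1 of the 8 genes (Gdf15) and in 16.3% of all windows.
Fgf21: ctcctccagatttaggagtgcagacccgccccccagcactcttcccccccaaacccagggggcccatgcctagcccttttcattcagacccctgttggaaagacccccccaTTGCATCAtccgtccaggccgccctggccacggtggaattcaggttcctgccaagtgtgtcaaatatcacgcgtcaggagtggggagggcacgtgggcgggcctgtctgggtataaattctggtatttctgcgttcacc
Gdf15: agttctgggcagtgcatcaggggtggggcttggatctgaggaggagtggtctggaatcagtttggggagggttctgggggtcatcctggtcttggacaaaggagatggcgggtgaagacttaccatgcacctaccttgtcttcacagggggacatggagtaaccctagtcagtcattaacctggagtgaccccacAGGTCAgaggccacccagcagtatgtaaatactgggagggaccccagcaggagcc
The LXR element of 2 such hexamers spaced by 4 bases, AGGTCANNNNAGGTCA, was searched on both strands in its strict form and was in no window of the 8 genes and in 0.0152% of all windows. The forkhead sequence GTAAACA, on either strand, was in 1 of the 8 genes (Fetub) and in 3.65% of all windows. The p53 core decamer was likewise in 1 gene (Fetub) and in 8.36% of all windows. A match describes these letters in these windows and is not a measured binding site.

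Enho, on chromosome 4 from 41638144 to 41640324 of GRCm38 (minus strand, 2 exons), encodes the secreted peptide adropin. It had 768 and 905 normalized counts in WT against 2189 and 1753 in LXRDKO. Both LXRDKO livers were high and both WT livers low, and the nearest livers of the 2 genotypes were 1.94-fold apart. The means were 836 ± 97.0 and 1971 ± 308 (SD, n = 2 each), which on limma's log2 scale is a difference of 1.23 (SE 0.15) with a 95% confidence interval of 1.81- to 3.05-fold. Adjusted P was 0.0615 in limma, 0.0638 in edgeR and 2.57e-08 in DESeq2, the test that the study used, so the call depended on the test. The log2 difference between genotypes was 3.84 times the larger difference between livers of a genotype, the highest such ratio of the 10 genes. Limma called Enho when WT replicate 1 (adjusted P = 0.0361) or WT replicate 2 (adjusted P = 0.0252) was left out, and did not without LXRDKO replicate 1 (0.211) or 2 (0.137).

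Enho overlaps other genes on the opposite strand. Whether the counting used the strand is not given in the sources used here, so reads from the bases that a pair shares cannot be told apart. With Dnaic1, a gene of motile cilia, Enho shares only the bases from 41638144 to 41638158, at the end of both genes. Dnaic1 had 16.0 and 46.7 normalized counts in WT against 106 and 143 in LXRDKO. On the log2 scale Dnaic1 differed by 2.13 (SE 0.53), with adjusted P = 0.205 in limma and 0.0123 in DESeq2. The antisense gene Gm12406, from 41639378 to 41641416, overlaps Enho over a longer stretch. It had 6.84 and 7.64 normalized counts in WT against 24.7 and 17.2 in LXRDKO (log2 fold change 1.39, adjusted P = 0.294, limma). Both overlapping genes were thus higher in both LXRDKO livers, at levels far under those of Enho. The 9 genes tested within 100 kb of Enho were chosen by position after the values of Enho were seen. Of these, 5 were higher in LXRDKO without overlap (21.7% of all genes) and 3 lower without overlap (23% of all genes). The 5 were Dnaic1, Gm12406, the antisense gene Gm12405, Rpp25l and Dctn3. Rpp25l and Dctn3 each had a log2 fold change of 0.14. The nearest gene beyond the antisense genes, Cntfr, which encodes a cytokine receptor subunit, had a log2 fold change of 0.0048 (adjusted P = 0.996, limma).

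Gdf15, on chromosome 8 from 70629393 to 70632456 (minus strand, 3 exons), encodes a stress hormone of the TGF-β family. It had 177 and 351 normalized counts in WT against 547 and 1446 in LXRDKO. Every LXRDKO liver was above every WT liver, by 1.56-fold at the nearest pair, and replicate 2 was the higher of each genotype, by 1.98-fold in WT and 2.64-fold in LXRDKO. The log2 fold change of 1.83 (SE 0.52) was the largest of the 10 genes in size, with a 95% confidence interval from 0.53 to 3.14. Adjusted P was 0.249 in limma, 0.233 in DESeq2 and 0.243 in edgeR. Without LXRDKO replicate 2, the log2 fold change was 1.13.

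Fgf21, on chromosome 7 from 45613886 to 45615490 (minus strand, 3 exons), encodes the fasting-induced hormone FGF21. It had 67.3 and 698 normalized counts in WT against 40.8 and 242 in LXRDKO. Replicate 2 was high and replicate 1 low in each genotype, so the genotypes overlapped. The replicates differed 10.4-fold in WT and 5.94-fold in LXRDKO, and 99.9% and 99.8% of the genes tested had a smaller difference between the livers of that genotype. These differences exceeded counting error, as WT replicate 1 rested on 59 reads (95% exact Poisson interval 51.2 to 86.8 normalized counts) and WT replicate 2 on 822 reads (651 to 747). Such intervals cover counting error only. For Fgf21 the log2 fold change was −1.11 (SE 1.27, 95% confidence interval −4.26 to 2.03, adjusted P = 0.776, limma), an interval that holds both a large fall and a large rise. It was 0.56 without WT replicate 2 and 0.16 without LXRDKO replicate 1.

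Lect2, on chromosome 13 from 56542464 to 56548502 (minus strand), had 4562 and 2473 normalized counts in WT against 4836 and 5145 in LXRDKO. WT replicate 2 stood apart as the low liver, and the other WT liver was only 1.06-fold under the nearest LXRDKO liver. Lect2 differed by 0.57 on the log2 scale (SE 0.28, adjusted P = 0.453 in limma and 0.450 in DESeq2). Without WT replicate 1, which leaves that low liver as the sole control, it was 1.01 and limma called it (adjusted P = 0.0165), whereas without WT replicate 2 it was 0.13.

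Fetub, on chromosome 16 from 22918334 to 22939778 (plus strand), had 37454 and 32990 normalized counts in WT against 43752 and 43962 in LXRDKO. The LXRDKO livers were nearly equal and both above WT. The difference was small, with a log2 fold change of 0.32 (SE 0.12, 95% confidence interval 0.03 to 0.61). Adjusted P was 0.341 in limma and 0.251 in DESeq2.

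**Figure D2:**
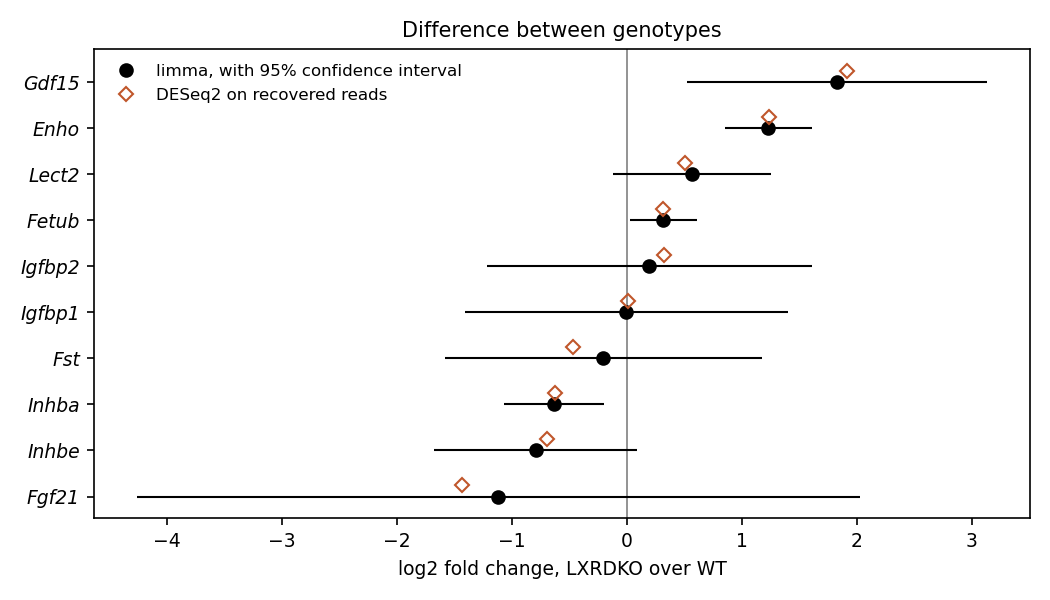
Log2 fold change of each hepatokine gene, LXRDKO over WT (x axis), from limma with its 95% confidence interval (filled circles and lines) and from DESeq2 on recovered reads (open diamonds). Gdf15 and Enho lie furthest to the right at 1.83 and 1.23, and the interval of Fgf21 spans from −4.26 to 2.03.

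Both activin subunit genes were lower in LXRDKO without overlap, and neither was called. Inhbe, on chromosome 10 from 127348857 to 127354411 (minus strand), encodes the subunit of activin E, which is made largely in hepatocytes. It had 5744 and 6967 normalized counts in WT against 2473 and 5400 in LXRDKO. The genotypes did not overlap, but LXRDKO replicate 2 was only 1.06-fold under the nearest WT liver, and the LXRDKO livers differed 2.18-fold between themselves. Inhbe differed by −0.79 on the log2 scale (SE 0.35, 95% confidence interval −1.67 to 0.09, adjusted P = 0.414 in limma and 0.821 in DESeq2). It was −0.23 without LXRDKO replicate 1. The antisense gene Gm47200, which overlaps Inhbe, had 53.6 and 50.1 normalized counts in WT against 37.0 and 37.5 in LXRDKO, far under Inhbe.

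Inhba, on chromosome 13 from 16011851 to 16031621 (plus strand), encodes the subunit of activin A. It had 609 and 659 normalized counts in WT against 355 and 471 in LXRDKO. The genotypes were separate, with the nearest livers 1.29-fold apart. Inhba differed by −0.63 on the log2 scale (SE 0.18, 95% confidence interval −1.07 to −0.19), with adjusted P = 0.242 in limma and 0.105 in DESeq2.

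Fst, on chromosome 13 from 114452290 to 114458951 (minus strand), encodes follistatin, which binds and neutralizes activins. It had 94.7 and 323 normalized counts in WT against 153 and 151 in LXRDKO. Both LXRDKO livers lay between the WT livers, which differed 3.42-fold. The log2 fold change of −0.20 (SE 0.56, adjusted P = 0.921, limma) was 0.68 without WT replicate 2.

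Of the 16 tested genes of a further list for the activin and follistatin pathway, neither limma nor DESeq2 called any, and 3 passed 0.05 in limma before adjustment, where 13.3% of all genes did. Of these 16, 8 were higher and 8 lower, 3 above and 6 below without overlap, beside 21.7% and 23% of all genes. Inhbc, the subunit gene of activin C, lies 1910 bases from Inhbe on the same strand and had 4262 and 3778 normalized counts in WT against 3189 and 3121 in LXRDKO. On the log2 scale it differed by −0.35 (adjusted P = 0.246, limma), and Inhbb, a further subunit gene, by −0.55 (adjusted P = 0.458, limma). Fstl3, which encodes a follistatin-like activin antagonist, had 12.5 and 14.4 normalized counts in WT against 30.4 and 27.9 in LXRDKO, a log2 fold change of 1.06 (adjusted P = 0.318, limma). Bambi, a decoy receptor of the family, had a log2 fold change of 0.32 (adjusted P = 0.628, limma). The median of the 16 genes was 0.01.

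Igfbp1, on chromosome 11 from 7197782 to 7202546 (plus strand, 4 exons), had 1874 and 4606 normalized counts in WT against 1831 and 4694 in LXRDKO. Each genotype had a low replicate 1 and a high replicate 2, 2.46-fold apart in WT and 2.56-fold in LXRDKO, and the genotypes nearly coincided. The log2 fold change was −0.0030 (SE 0.56, 95% confidence interval −1.41 to 1.40, adjusted P = 0.999, limma). Its sign turned with the scaling and with the test, so no direction was read from it, and the interval still allows a 2.64-fold rise.

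Igfbp2, on chromosome 1 from 72824503 to 72852474 (plus strand, 4 exons), had 19771 and 39598 normalized counts in WT against 55935 and 18427 in LXRDKO. Here LXRDKO replicate 1 was the highest liver and LXRDKO replicate 2 the lowest, with both WT livers between them. The log2 fold change was 0.20 (SE 0.57, 95% confidence interval −1.22 to 1.62, adjusted P = 0.927, limma). Leaving out LXRDKO replicate 1 gave −0.60, and leaving out LXRDKO replicate 2 gave 1.00.

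Of the 10 tested genes of a list for the rest of the IGF axis, limma called none, 2 passing 0.05 before adjustment (13.3% of all genes), and DESeq2 called 1, Igfbp3, the main carrier of circulating IGF-1, as up-regulated. Igfbp3 had 1033 and 1541 normalized counts in WT against 2046 and 2278 in LXRDKO, a log2 fold change of 0.77 (adjusted P = 0.218 in limma and 0.0229 in DESeq2). Igf1, the growth factor itself, had a log2 fold change of 0.20 (adjusted P = 0.628, limma). The receptor genes Igf2r and Insr had log2 fold changes of −0.49 (adjusted P = 0.442, limma) and −0.27 (adjusted P = 0.294, limma).

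Several of these genes differed widely between livers of 1 genotype. In 6 of the 10 genes (Fgf21, Igfbp1, Igfbp2, Inhbe, Gdf15 and Fst) the replicates of at least 1 genotype were over 2-fold apart, as against 9.46% of all genes tested. The median absolute log2 difference between replicates over all genes was 0.18 in WT and 0.17 in LXRDKO. In 5 of the 10 (Fgf21, Igfbp1, Inhbe, Inhba and Gdf15) replicate 2 was the higher liver of both genotypes, as for 24.4% of all genes. Across 15578 genes, which are not independent, the replicate differences of the 2 genotypes had a correlation of 0.0031. A correlation over all genes cannot speak for a few genes such as these. In 4 of the 10 genes (Enho, Inhba, Gdf15 and Fetub) the difference between genotypes was larger than both differences between replicates, as for 32.2% of all genes. The length of fast is given as a range for all livers, and its part in these differences was not tested.

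**Figure D3:**
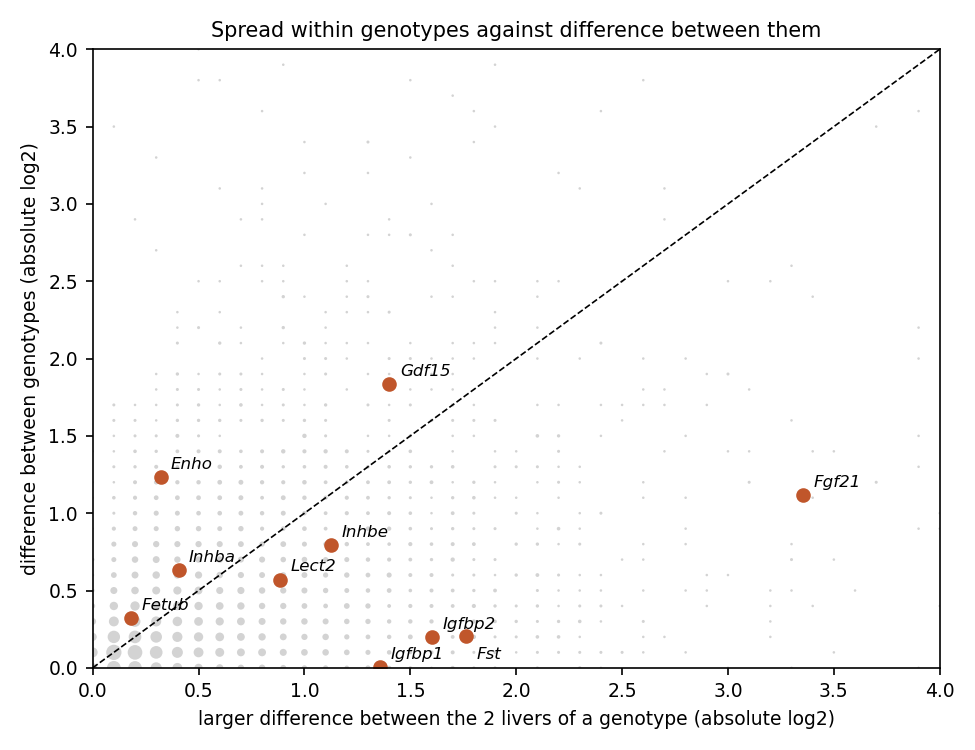
Absolute log2 difference between genotype means (y axis) against the larger absolute log2 difference between the 2 livers of a genotype (x axis), with hepatokine genes in orange and all genes tested as grey dots, binned, with larger dots for more genes. The dashed line marks equal values, and Enho, Inhba, Gdf15 and Fetub lie above it.

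Levels were compared between genes per kilobase of exon, merged over all GENCODE M21 models of a gene. On this scale Fetub was the most abundant of the 10 transcripts, at 17952 normalized counts per kb in WT (mean, n = 2) and 22353 in LXRDKO. Igfbp2 followed at 16072 and 20130 per kb, and its LXRDKO livers, at 30284 and 9977 per kb, lay on either side of those of Fetub. Lect2 had 3828 and 5431 normalized counts per kb, and Igfbp1 had 2124 and 2139. Below these, the order of the means was Inhbe, Enho, Fgf21 and Gdf15 in WT, at 1195, 659, 402 and 142 per kb. In LXRDKO it was Enho, Inhbe, Gdf15 and Fgf21, at 1553, 740, 538 and 149 per kb. Single livers overlapped between some of these neighbours, as Fgf21 in WT ranged from 70.8 to 734 per kb. Inhbe was divided by 5319 bases, which include its longer GENCODE model, so its place in the order rests on that model. By the means, Inhba and Fst were lowest in both genotypes, although in replicate 1 of each genotype Fgf21 (70.8 per kb in WT, 42.9 in LXRDKO) lay under Inhba (95.3 and 55.6). The means were, for Inhba, 99.2 and 64.6 per kb and, for Fst, 45.6 and 33.1 per kb.

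Other genes of the hormone pathways and of their known upstream signals, 91 tested genes on 8 lists, held 5 that limma called (0.321% of all genes) and 15 that DESeq2 called (3.59% of all genes), all up-regulated. The list of 12 p53 targets held 3 of the limma calls and 9 of the DESeq2 calls. The study had already reported enrichment of a p53 response among the genes up-regulated in these livers. The number that limma called among these 91 shifted with the liver left out, as did the number called over all genes. The 5 genes were Fgfr1, Gpnmb, Cdkn1a, Phlda3 and Eda2r.

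FGF21 signals through FGF receptors with the coreceptor β-Klotho. Of 5 tested genes on the list of FGF21 relatives and receptors, limma and DESeq2 each called 1, Fgfr1, and 2 passed 0.05 in limma before adjustment, where 13.3% of all genes did. Fgfr1 rose from 1004 and 850 normalized counts in WT to 2269 and 2229 in LXRDKO (log2 fold change 1.28 ± 0.12 SE, adjusted P = 0.0329 in limma and 2.18e-12 in DESeq2). Fgfr2, with 2686 and 4105 normalized counts in WT against 2389 and 1728 in LXRDKO, had a log2 fold change of −0.71 (adjusted P = 0.316, limma). Klb, which encodes β-Klotho, had a log2 fold change of −0.12 (adjusted P = 0.757, limma) and overlapped between genotypes. Of 3 tested receptor genes of the other hormones, neither limma nor DESeq2 called any, and 1 passed 0.05 in limma before adjustment. Met and Tie1, both receptors of LECT2, had log2 fold changes of −0.36 (adjusted P = 0.280, limma) and −0.32 (adjusted P = 0.405, limma).

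Of 20 further hepatokine genes, limma and DESeq2 each called 1, Gpnmb, and 4 passed 0.05 in limma before adjustment (13.3% of all genes). Gpnmb encodes a glycoprotein shed from liver cells and macrophages and rose from 11.4 and 25.5 to 644 and 622 normalized counts, a log2 fold change of 5.13 (SE 0.39, adjusted P = 0.0239, limma). Tsku, which encodes tsukushi, had a log2 fold change of 0.59 (adjusted P = 0.263, limma). The median of the 20 genes was −0.02.

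Fgf21, Gdf15 and Inhbe are known targets of the integrated stress response. Of 16 tested genes on a list for that response, limma called none, 5 passing 0.05 before adjustment (13.3% of all genes), and DESeq2 called 3 (3.59% of all genes), each up-regulated. These were Ddit4, an inhibitor of mTORC1 (log2 fold change 1.69, adjusted P = 0.155 in limma and 0.000185 in DESeq2), Cth, an enzyme of cysteine synthesis (0.76, adjusted P = 0.127 and 0.00033), and Sesn2 (0.69, adjusted P = 0.205 and 0.0286). Ddit4 is also induced by other stresses and by glucocorticoids. Psat1, an enzyme of serine synthesis, had a log2 fold change of −0.41 (adjusted P = 0.655, limma). The median of the 16 genes was 0.24, with 6 genes above and 1 below without overlap, beside 21.7% and 23% of all genes. The other 9 genes overlapped between genotypes. Their log2 fold changes in limma were −0.06 (Atf4), 0.65 (Atf3), −0.07 (Ddit3), −0.01 (Trib3) and 0.46 (Asns). Chac1 had 0.02, Ppp1r15a −0.11, Nupr1 0.27 and Vldlr −0.99.

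Igfbp1 is induced by FoxO1 when insulin is low. Of 10 such FoxO targets and factors, neither limma nor DESeq2 called any, and 3 passed 0.05 in limma before adjustment (13.3% of all genes). Pck1, which encodes the gluconeogenic enzyme PEPCK, had a log2 fold change of 0.35 (adjusted P = 0.492, limma), and Ppargc1a, a coactivator of gluconeogenesis, had one of 0.39 (adjusted P = 0.356, limma). Sesn3 and Irs2 had log2 fold changes of −0.34 (adjusted P = 0.409, limma) and 0.31 (adjusted P = 0.306, limma).

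Gdf15 is also a known p53 target. On a list of 12 other p53 targets, limma called 3 (0.321% of all genes), all up-regulated, and DESeq2 called 9 (3.59% of all genes), also up-regulated. Without overlap between genotypes, 11 were higher in LXRDKO, beside 21.7% of all genes. Cdkn1a, a cell cycle inhibitor, rose from 62.7 and 95.9 to 2457 and 6375 normalized counts (log2 fold change 5.65, adjusted P = 0.0255, limma). Phlda3, an inhibitor of AKT, rose from 37.6 and 40.7 to 615 and 1160 normalized counts (log2 fold change 4.40, adjusted P = 0.0239, limma). Eda2r, a receptor of the TNF receptor family, rose from 14.8 and 34.0 to 365 and 589 normalized counts (log2 fold change 4.30, adjusted P = 0.0432, limma). Ccng1, which encodes cyclin G1, had a log2 fold change of 1.20 (adjusted P = 0.115, limma). The median of the 12 genes was 0.98, and the part of p53 in the value of Gdf15 was not tested.

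**Figure D4:**
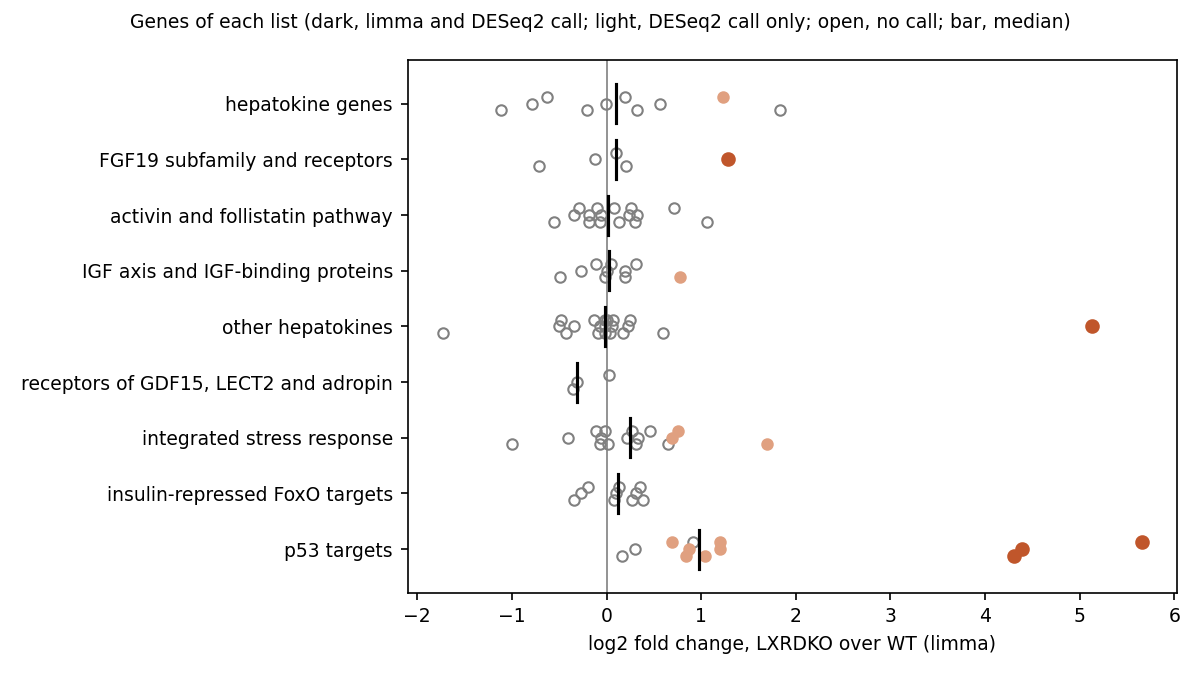
Log2 fold change, LXRDKO over WT (x axis, limma), of the tested genes of the hepatokine list and of 8 further lists (rows), with filled dark dots for genes called by limma and DESeq2, light dots for genes called by DESeq2 alone, open dots for uncalled genes and a bar at each median. Cdkn1a, Gpnmb, Phlda3 and Eda2r lie beyond 4, and the hepatokine genes lie between −1.11 and 1.83.

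Whole liver was measured, so fewer cells of a type and less RNA per cell cannot be told apart. Markers of other cell types differed between the same livers, and their part in the hepatokine values was not tested. Limma called 0.321% of all genes tested and DESeq2 3.59% of those it tested, and 13.3% passed 0.05 in limma before adjustment. Without overlap, 21.7% of all genes tested were higher in LXRDKO and 23% lower. The 11 Kupffer cell and macrophage markers summed to 15707 and 17910 normalized counts in WT against 11739 and 6974 in LXRDKO. Limma called 3 of them down-regulated (Cd5l, Marco and Clec4f, with log2 fold changes of −7.85, −3.02 and −2.93), and Timd4 was at 0 in LXRDKO replicate 2. Of the 11, 6 were lower without overlap, and the 5 others, the general macrophage genes Csf1r, C1qa, C1qb, C1qc and Cd68, overlapped, with log2 fold changes of 0.05, −0.19, 0.06, −0.29 and 0.35. The 10 sinusoidal endothelial markers summed to 22808 and 19994 in WT and 17639 and 13436 in LXRDKO, with Kdr called down-regulated (log2 fold change −1.17, adjusted P = 0.0498, limma). Of these 10, 7 were lower without overlap and 0 higher without overlap. The 10 stellate cell and fibroblast markers summed to 20362 and 23822 in WT and 28452 and 31012 in LXRDKO. None was called by limma, 5 had an unadjusted P value under 0.05 in limma, and 2 were called by DESeq2 (Dcn and Reln). Without overlap, 6 of them were higher and 0 lower. The 7 cholangiocyte markers with a row were all higher in both LXRDKO livers, with sums of 2099 and 3645 in WT and 4636 and 5494 in LXRDKO, and DESeq2 called Epcam (log2 fold change 1.25, adjusted P = 0.0112, DESeq2). Lymphocyte and neutrophil markers summed to 477 and 818 in WT and 992 and 572 in LXRDKO, which overlapped. Of the 7 tested, neither limma nor DESeq2 called any and 3 passed 0.05 in limma before adjustment, while 4 (Cd3e, Cd79a, Ms4a1 and Nkg7) were lower without overlap and none higher. The median of these 7 was −0.91 on the log2 scale.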

How the data were processed

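RNA-Seq libraries of 2 WT and 2 LXRDKO livers were analysed. The study extracted RNA from frozen tissue, captured polyadenylated RNA with a strand-marking kit, read 50 bp from 1 end and aligned them to mm10 (STAR 2.6.0c in the submitters' processing notes). The deposited values are a signal: counts that the authors normalized with DESeq2, 1 size factor per library (0.877 and 1.18 in WT, 1.05 and 0.933 in LXRDKO). The counting tool, its strand setting and the annotation release are not given in the sources used here. All values (100%, within 0.1 read) are whole multiples of 1 read, so reads could be recovered.

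Limma 3.58.1 (variance trend, R 4.3.3) was fitted to log2(normalized count + 1). It called 50 of the 15578 genes whose mean reached 10, 21 up-regulated and 29 down-regulated. A two-sided exact permutation test with 2 livers per genotype goes no lower than P = 0.333, so P values rest on the spread pooled across genes. DESeq2 1.42.0 and edgeR 4.0.16 were run on recovered reads. DESeq2, the test of the study, called 246 genes up-regulated and 321 down-regulated, the same numbers that the study reported. The fits were tested on simulated data. Tried besides were pseudocounts of 0.5 and 8, filters at no minimum and at a mean of 50, 2 other scalings, limma without trend or robust, the replicate number as a block, and leaving out each liver.

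Positions and exon lengths came from GENCODE M21, which held 24987 of the 25010 gene identifiers. Start regions came from RefSeq. The hepatokine genes, 14 other gene lists and the tests were chosen with earlier results of these data known. Named genes are all 10 hepatokine genes and, of each other list, genes called by limma and the 4 with the largest fold change among those without overlap. The values of some of these are not reported here. Klb, genes called by DESeq2 alone, the genes around Enho and members of lists named for their place in a group were chosen after their values were seen. Of the 103 genes on the 8 pathway lists, 5 have no row in the table, including the GDF15 receptor genes Gfral and Ret. Chromatin accessibility was not analysed here.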

Additional observations from a re-analysis of the deposited data

How the results depend on the processing

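Of 150 values of the 10 hepatokine genes under 15 alternatives, 133 kept their direction and their side of the threshold, 11 changed sign (7 of them with a liver left out) and 6 passed the threshold. No hepatokine gene passed it in limma, and 1 did in DESeq2 (Enho). With robust moderation 1 passed (Enho, adjusted P = 0.0499, limma). With the replicate block 1 passed (Gdf15, adjusted P = 0.0284, limma), although the sources used here do not say that the numbers pair the mice. Leaving out 1 liver gave from 0 to 2 (Enho and Lect2 without WT replicate 1). In such fits the lone liver is assumed to vary like the others. Igfbp1 changed sign to 0.035 under upper-quartile scaling, 0.052 under library total scaling, 0.010 in DESeq2 and 0.015 in edgeR. With 1 liver left out, log2 fold changes ranged from −0.68 to 0.68 for Igfbp1, −0.60 to 1.00 for Igfbp2, −2.79 to 0.56 for Fgf21 and −1.08 to 0.68 for Fst. The ranges held 1 sign for Enho (1.07 to 1.39), Gdf15 (1.13 to 2.53), Lect2 (0.13 to 1.01), Fetub (0.23 to 0.41), Inhba (−0.83 to −0.43) and Inhbe (−1.35 to −0.23).

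Over all genes, 50 calls became 567 in DESeq2, 1 without the trend, 25 at a mean of at least 50 (fewer genes tested) and 90 with the replicate block, and from 2 (without LXRDKO replicate 1) to 262 (without WT replicate 1) with a liver left out. The 5 calls among 91 pathway genes became 15 in DESeq2, 0 without the trend and from 0 to 10 with a liver left out. The replicate block left Enho uncalled by limma. Apart from what a setting itself changes, the cause of these shifts was not tested.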
